A study of Mus musculus with 18 samples.

Results

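The 46 genes described here form the ATF4 module of the integrated stress response, out of 53801 genes in the count table. They were chosen by their known place in the pathway and on the knowledge that they moved differently between the cell lines at T48. Values of these genes that use a T48 library are therefore given as a description, with no test. Lists of related genes outside the module were tested at T48, although they too were chosen with earlier results of these data known. By function, 6 were transcription factors, 9 were stress effectors and feedback genes, 8 were enzymes of amino acid synthesis, 4 were mitochondrial one-carbon enzymes, 7 were amino acid transporters, and 12 were cytosolic tRNA synthetases with the tRNA exporter Xpot. All 46 passed the filter on low counts.

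Polyadenylated RNA was sequenced from mouse embryonic stem cells (ESCs) to ask how sustained membrane tension affects exit from naive pluripotency. Wild-type (WT) E14 cells, the parental line, were compared with iEZR_CA cells, E14 cells that carry a PiggyBac transgene for a phosphomimetic, constitutively active form of ezrin under doxycycline control. Ezrin tethers the cell membrane to cortical actin. Each line was sampled in 2i+LIF, the medium that holds cells in the naive state (0 h, ESC), and again in N2B27 without these factors, at 24 h (called T24) and at 48 h (called T48), with 3 libraries in each of the 6 groups. The lines were grown on gelatin and collected side by side. The iEZR_CA cells received doxycycline from the night before exit, and none is given for WT, so effects of doxycycline, of the transgene and of the derived line cannot be told apart. Whether the derived line is 1 clone is not given in the sources used here. The 3 libraries of a group were independent biological replicates per the study's text. Their labels carry no replicate number, and the numbers used below follow the order of deposition within each group and pair nothing.

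The integrated stress response starts when stress kinases phosphorylate the translation factor eIF2, which slows protein synthesis overall and raises translation of the mRNA for the transcription factor ATF4. ATF4 pairs with C/EBP proteins at C/EBP-ATF response elements and raises transcription of genes for amino acid uptake and synthesis, tRNA charging and stress signalling. Levels of mRNA do not report eIF2 phosphorylation or ATF4 protein.

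The core letters of that element, TGATGNAA or, on the other strand, TTNCATCA, were searched on both strands in RefSeq promoter windows (GRCm38.p6) that run from 250 bases before to 50 bases after each start site. Windows were found for 37 of the 46 genes, and 14 of the 37 (37.8%) held the core, beside 1219 of 27025 genes (4.51%) over all promoters. The stricter letters TGATGCAA or TTGCATCA were in 11 of the 37 (29.7%), beside 279 genes (1.03%). No window was found for Eif4ebp1, Cth, Aldh1l2, Slc7a5, Slc7a3, Wars, Nars, Lars and Cars. The core is shown in capitals for the 9 genes outside the synthetase group that hold it, with flanking promoter bases in lower case, because these are the letters through which ATF4 is known to act on its targets.
Nupr1, chr7:126625533-126625620, minus strand: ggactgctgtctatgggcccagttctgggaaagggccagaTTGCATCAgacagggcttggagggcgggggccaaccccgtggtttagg
Chac1, chr2:119351009-119351096, plus strand: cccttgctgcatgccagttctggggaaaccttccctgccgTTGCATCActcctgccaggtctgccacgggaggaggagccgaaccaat
Trib3, chr2:152344039-152344086, minus strand: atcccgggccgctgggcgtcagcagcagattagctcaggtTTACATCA
Herpud1, chr8:94386277-94386364, plus strand: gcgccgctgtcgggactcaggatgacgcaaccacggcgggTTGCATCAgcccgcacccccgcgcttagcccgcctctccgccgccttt
Vldlr, chr19:27216780-27216867, plus strand: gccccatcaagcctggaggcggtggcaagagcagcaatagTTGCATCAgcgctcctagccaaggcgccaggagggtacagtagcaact
Asns, chr6:7693210-7693272, minus strand: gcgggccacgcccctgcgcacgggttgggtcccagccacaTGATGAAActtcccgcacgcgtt
Pycr1, chr11:120643804-120643891, minus strand: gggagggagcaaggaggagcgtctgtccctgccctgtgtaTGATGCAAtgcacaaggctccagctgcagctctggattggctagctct
Slc7a11, chr3:50443632-50443719, minus strand: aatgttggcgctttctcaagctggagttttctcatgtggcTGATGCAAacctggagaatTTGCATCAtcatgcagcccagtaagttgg
Slc1a4, chr11:20332710-20332757, minus strand: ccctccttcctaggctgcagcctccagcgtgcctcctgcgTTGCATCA

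Slc7a11 held the core in both orientations within 1 window, and the matches of Trib3, Slc1a4 and Asns lay nearest to the start site. A match is a description of the letters, not a bound site, and no binding was measured here. Genes with the core in the window had a median log2 fold change between the lines of -1.15 at T48 and those without it -1.12. In ESCs these medians were -0.16 and -0.29, and at T24 they were -0.06 and -0.22.

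Reads assigned to genes ranged from 10940752 to 33276622 per library, and replicates of a group were close (common biological coefficient of variation 2.98%). Ezr RNA was higher in each iEZR_CA library than in every WT library of the same stage, with group means of 24819 against 11763 normalized counts in ESCs, 20793 against 7711 at T24 and 16215 against 10096 at T48. Normalized counts here are counts divided by the library's scaling factor, and they are the unit of all library values below. Log2 fold changes compare iEZR_CA with WT unless stated, with the standard error (SE) from the fit over 18 libraries and p-values from edgeR's quasi-likelihood test, adjusted by Benjamini-Hochberg over 18469 genes. In bulk RNA, fewer cells expressing a gene and less RNA per cell cannot be told apart.

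More genes of the module were lower than higher in iEZR_CA cells, both before exit and at T24. In ESCs 28 of the 46 genes were lower (60.9%, beside 28.1% of all genes tested) and 7 were higher (15.2%, beside 26.4%), with a median log2 fold change of -0.23 beside -0.01 over all genes. At T24 21 were lower (45.7%, beside 30.1%) and 8 were higher (17.4%, beside 30.8%), with a median of -0.11. Scaled to the spike-in RNA, 15 were lower and 4 higher in ESCs, beside 13.2% and 16.6% of all genes, and 7 were lower and 6 higher at T24, beside 15.0% and 23.6%. The T24 count of lower genes under that scaling (15.2%) was near the share over all genes. Differences past 2-fold were few. Chac1, Stc2 and Slc1a4 were more than 2-fold lower in ESCs (3 of 46, 6.5%, beside 6.31% of all genes), and Stc2, Slc38a2 and Chac1 at T24 (3 of 46, 6.5%, beside 7.00%). No gene of the module was more than 2-fold higher at either stage.

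At T48, where the genes had been chosen, 43 of the 46 stood below WT, 3 stood above, and the 3 libraries of one line overlapped those of the other for 0 of the 46. Libraries did not overlap for 32.3% of all genes tested on the lower side and 32.2% on the higher. The median log2 fold change was -0.83, and 20 genes (43.5%) were more than 2-fold lower, against 0 more than 2-fold higher. Over all genes, 8.60% were more than 2-fold lower and 8.71% more than 2-fold higher, and 30.1% and 31.0% passed the test. The largest distances were those of Chac1, Vldlr, Aldh1l2, Slc7a11, Stc2, Trib3 and Nupr1. The 3 genes above WT were Ppp1r15a at 0.50 (SE 0.06), Slc38a2 at 0.44 (SE 0.03) and Slc7a3 at 0.37 (SE 0.03). These counts describe how the genes were picked and carry no test.

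**Figure D1:**
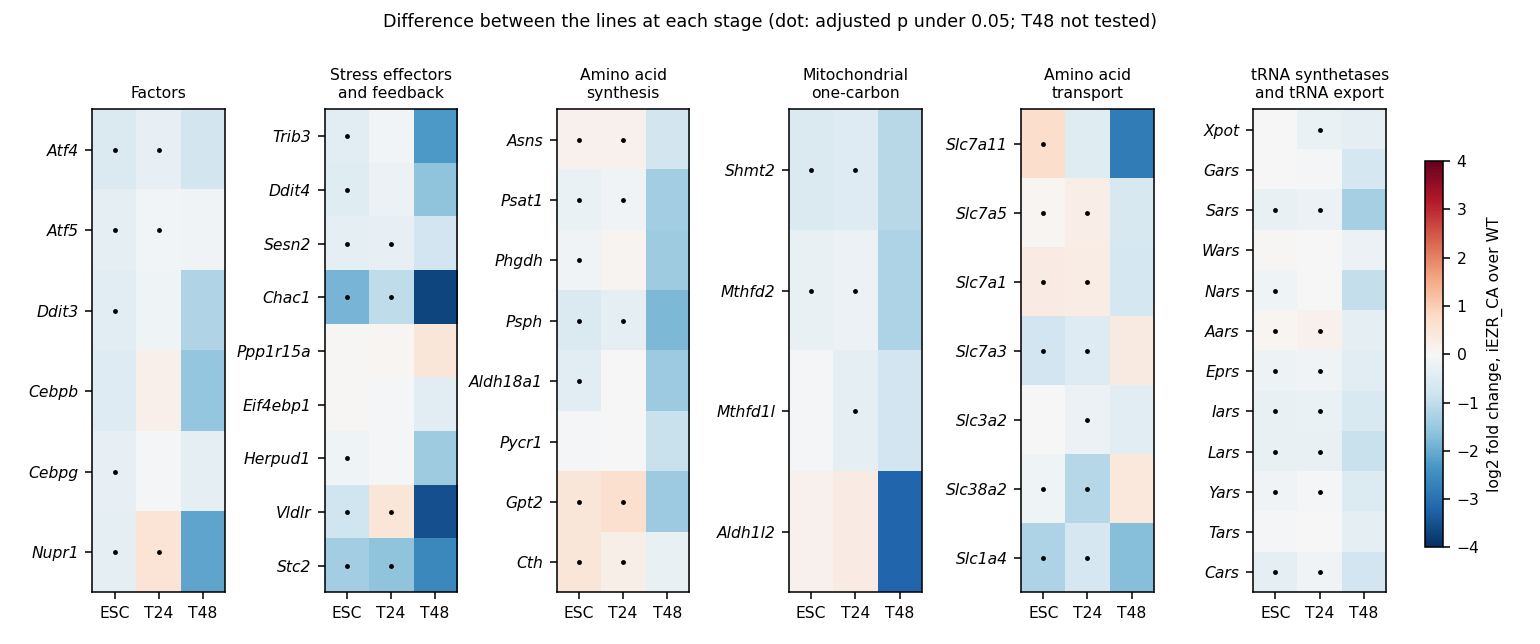
Log2 fold change of iEZR_CA over WT (color) for the 46 genes (rows, by function) in ESCs, at T24 and at T48 (columns), from 3 libraries per group. Dots mark an adjusted p under 0.05 in ESCs or at T24, and T48 carries no dots because the genes were chosen there. Chac1, Vldlr, Aldh1l2 and Slc7a11 reach -3.67, -3.52, -3.17 and -2.80 at T48.

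Of the 6 transcription factors, 5 were lower in iEZR_CA ESCs (83.3%, beside 28.1% of all genes) and 0 were higher (beside 26.4%). At T24 2 were lower (33.3%, beside 30.1%) and 1 was higher (16.7%, beside 30.8%). The count of lower factors at T24 was near the share over all genes. Atf4 (ENSMUSG00000042406, chr15:80255184-80257541, GRCm38) encodes the central transcription factor of the response. Atf4 measured 7299, 7494 and 7654 in WT ESCs, 5127, 5239 and 5106 in WT cells at T24 and 9236, 9080.0 and 9087 in WT cells at T48. In iEZR_CA cells Atf4 measured 5002, 5129 and 4859 in ESCs, 4024, 4236 and 4058 at T24 and 5508, 5623 and 5384 at T48. The lines did not overlap at any stage, and WT cells at T48 had the highest level of the 6 groups. Atf4 was lower in iEZR_CA cells, with log2 fold changes of -0.59 (SE 0.03, adjusted p = 1.2e-28) in ESCs and -0.33 (SE 0.03, adjusted p = 4.4e-16) at T24, and its value at T48 was -0.72 (SE 0.03). Atf5, a related factor that also responds to eIF2 phosphorylation, was highest in WT ESCs. Atf5 gave 1726, 1689 and 1848 in WT ESCs, 1205, 1220.4 and 1143 in WT cells at T24 and 1281, 1457 and 1354 in WT cells at T48. In iEZR_CA cells Atf5 gave 1366, 1333 and 1329 in ESCs, 1098, 1112 and 1088 at T24 and 1194, 1187 and 1253 at T48. The lines were apart in ESCs and close at T24 and T48, without overlap. Its fold changes were -0.39 (SE 0.04, adjusted p = 7.9e-13) in ESCs and -0.12 (SE 0.04, adjusted p = 0.018) at T24, and the T24 call was lost when replicate 1 (-0.10) or 2 (-0.10) of WT T24 or replicate 3 of iEZR_CA T24 (-0.11) was left out, with DESeq2 (-0.12) and with no filter on low counts (-0.11).

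Ddit3 encodes CHOP, a C/EBP-type factor induced by ATF4. Ddit3 stood at 125, 127 and 117 in WT ESCs, at 63.1, 66.6 and 70.9 in WT cells at T24 and at 158, 172 and 156 in WT cells at T48. In iEZR_CA cells Ddit3 stood at 107, 82.9 and 88.2 in ESCs, at 52.6, 65.3 and 55.3 at T24 and at 68.6, 79.2 and 57.6 at T48. WT cells at T48 were at the top, the lines overlapped at T24, and iEZR_CA libraries at T48 lay within or just above their T24 range. The fold change was -0.42 (SE 0.13, adjusted p = 0.0036) in ESCs, a call lost without replicate 2 of iEZR_CA ESC (-0.33), -0.17 (SE 0.15, adjusted p = 0.37) at T24 and -1.20 (SE 0.12) at T48. Of its exon bases 10.9% overlapped other genes, chiefly Mars on the other strand. Cebpb and Cebpg encode C/EBP partners of ATF4. Cebpb measured 47.2, 29.8 and 29.8 in WT ESCs, 33.5, 21.2 and 4.73 in WT cells at T24 and 209, 88.0 and 204 in WT cells at T48. In iEZR_CA cells Cebpb measured 27.7, 25.9 and 16.8 in ESCs, 36.4, 22.8 and 25.3 at T24 and 78.6, 45.4 and 60.0 at T48. One WT library at T24 was far below its group, and one WT library at T48 was near the highest iEZR_CA library. Cebpb passed no test, at -0.52 (SE 0.54, adjusted p = 0.45) in ESCs and 0.19 (SE 0.56, adjusted p = 0.79) at T24, its fold change at T48 was -1.56 (SE 0.31), and it shared 20.7% of its exon bases with Tmem189. Cebpg gave 792, 814 and 731 in WT ESCs, 776, 709.6 and 772 in WT cells at T24 and 1301, 1256 and 1224 in WT cells at T48. In iEZR_CA cells Cebpg gave 633, 631 and 606 in ESCs, 709.5, 726 and 679 at T24 and 934, 974 and 969 at T48. Cebpg libraries overlapped between the lines at T24 and were apart in ESCs and at T48. Its fold changes were -0.33 (SE 0.05, adjusted p = 2.5e-07) in ESCs, -0.09 (SE 0.05, adjusted p = 0.11) at T24 and -0.39 (SE 0.05) at T48.

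Nupr1 (ENSMUSG00000030717, chr7:126623249-126630861) encodes a small stress-induced chromatin protein and had the widest distance between the lines at T48 among the factors. Nupr1 stood at 758, 767 and 719 in WT ESCs, at 88.2, 101 and 96.2 in WT cells at T24 and at 626, 585 and 493 in WT cells at T48. In iEZR_CA cells Nupr1 stood at 557, 596 and 552 in ESCs, at 136, 164 and 107 at T24 and at 135, 128 and 126 at T48. Its RNA was low at T24 in both lines, stood between the T24 and ESC levels at T48 in WT cells, and lay within its T24 range in iEZR_CA cells. Nupr1 was lower in iEZR_CA ESCs, at -0.40 (SE 0.07, adjusted p = 8.2e-06), higher at T24, at 0.55 (SE 0.14, adjusted p = 0.00049), and at -2.11 (SE 0.10) at T48, a 4.33-fold lower mean.

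Among the stress effectors and feedback genes, 7 of 9 were lower in iEZR_CA ESCs (77.8%, beside 28.1% of all genes) and 0 were higher (beside 26.4%). At T24, 3 were lower (33.3%, near the 30.1% of all genes) and 1 was higher (11.1%, beside 30.8%). Chac1 (ENSMUSG00000027313, chr2:119351229-119354381) encodes an enzyme that degrades glutathione and is a target of ATF4 and CHOP. Chac1 measured 272, 303 and 281 in WT ESCs, 139, 140.3 and 131 in WT cells at T24 and 2162, 2141 and 1908 in WT cells at T48. In iEZR_CA cells Chac1 measured 75.3, 84.5 and 78.4 in ESCs, 62.0, 74.5 and 63.8 at T24 and 175, 162 and 143 at T48. Every iEZR_CA library in ESCs and at T24 was below every WT library, and iEZR_CA cells at T48 were just above WT cells at T24. Chac1 was lower in ESCs, at -1.85 (SE 0.10, adjusted p = 5.1e-25), and at T24, at -1.02 (SE 0.12, adjusted p = 4.2e-11). At T48 its log2 fold change of -3.67 (SE 0.07), or 12.7-fold lower, was the largest of the 46.

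Vldlr (ENSMUSG00000024924, chr19:27216484-27254231) encodes a lipoprotein receptor known as an ATF4 target under endoplasmic reticulum stress. Vldlr gave 102, 125 and 101 in WT ESCs, 26.4, 39.4 and 31.5 in WT cells at T24 and 889, 878 and 796 in WT cells at T48. In iEZR_CA cells Vldlr gave 63.1, 61.1 and 71.4 in ESCs, 44.5, 53.9 and 32.8 at T24 and 61.1, 89.2 and 69.5 at T48. The lines overlapped at T24 and were far apart at T48, where iEZR_CA libraries sat at about their ESC level. Vldlr was lower in ESCs, at -0.79 (SE 0.15, adjusted p = 5.5e-06), and higher at T24, at 0.49 (SE 0.21, adjusted p = 0.036). The T24 call was lost with DESeq2 (0.48) and limma-voom (0.48), and without replicate 1 (0.30) or 3 (0.49) of WT T24 or replicate 1 (0.49) or 2 (0.26) of iEZR_CA T24. Its fold change at T48 was -3.52 (SE 0.10), or 11.4-fold lower. Stc2 (ENSMUSG00000020303, chr11:31357307-31370074) encodes the secreted glycoprotein stanniocalcin 2. Stc2 stood at 200.1, 249 and 255 in WT ESCs, at 236, 244 and 269.5 in WT cells at T24 and at 1214, 1252 and 1166 in WT cells at T48. In iEZR_CA cells Stc2 stood at 86.4, 90.4 and 95.2 in ESCs, at 107, 85.8 and 54.4 at T24 and at 222, 195 and 179 at T48. The lines did not overlap at any stage, and at T48 2 of 3 iEZR_CA libraries were below every WT ESC library. Stc2 was the gene with the lowest fold change at T24, -1.62 (SE 0.13, adjusted p = 2.3e-14), after -1.40 (SE 0.13, adjusted p = 1.8e-12) in ESCs and before -2.59 (SE 0.08) at T48.

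Ddit4 encodes REDD1, an inhibitor of the growth kinase complex mTORC1. Ddit4 measured 1269, 1398 and 1339 in WT ESCs, 1189, 1295 and 1250.0 in WT cells at T24 and 5949, 5160.5 and 4392 in WT cells at T48. In iEZR_CA cells Ddit4 measured 964, 990.2 and 941 in ESCs, 1105, 1049.9 and 1044 at T24 and 1838, 1657 and 1584 at T48. WT libraries at T48 were the highest and the most spread, and iEZR_CA libraries at T48 were above all earlier libraries of both lines. Ddit4 was lower in ESCs, at -0.48 (SE 0.11, adjusted p = 0.0027), and its fold changes at T24 and T48 were -0.22 (SE 0.11, adjusted p = 0.11) and -1.60 (SE 0.09). Trib3, a pseudokinase that restrains ATF4 and CHOP (ENSMUSG00000032715, chr2:152337422-152344032), had mean normalized counts (± SD, n = 3) of 1179 ± 30.9, 482 ± 26.2 and 1722 ± 125 in WT cells at the 3 stages, and 884 ± 68.1, 451 ± 24.3 and 343 ± 18.3 in iEZR_CA cells. Its level in iEZR_CA cells at T48 was the lowest of the 6 groups and in WT cells at T48 the highest. Trib3 was lower in ESCs, at -0.41 (SE 0.05, adjusted p = 4.5e-10), was at -0.10 (SE 0.07, adjusted p = 0.19) at T24, and had a log2 fold change of -2.31 (SE 0.06) at T48.

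Sesn2, an amino acid sensor upstream of mTORC1, was lower in ESCs (-0.41) and at T24 (-0.34), with -0.77 at T48. Herpud1, which acts in degradation of misfolded endoplasmic reticulum proteins, was lower in ESCs at -0.18 (SE 0.07, adjusted p = 0.025). That call was lost with DESeq2 (-0.18) and without replicate 2 (-0.18) or 3 (-0.14) of WT ESC or replicate 3 of iEZR_CA ESC (-0.11). Herpud1 was at -0.07 at T24 and -1.42 at T48. Eif4ebp1, a repressor of cap-dependent translation, passed no test, with 0.05, -0.05 and -0.42 at the 3 stages. Ppp1r15a, which encodes the phosphatase subunit GADD34 that reverses eIF2 phosphorylation, went the other way at T48. Its means were 916 ± 47.2, 782 ± 28.96 and 496 ± 34.9 in WT, and 950.0 ± 59.0, 825 ± 18.7 and 702 ± 45.3 in iEZR_CA cells, so that the lowest group was WT at T48. It passed no test between the lines in ESCs (0.05) or at T24 (0.08).

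**Figure D2:**
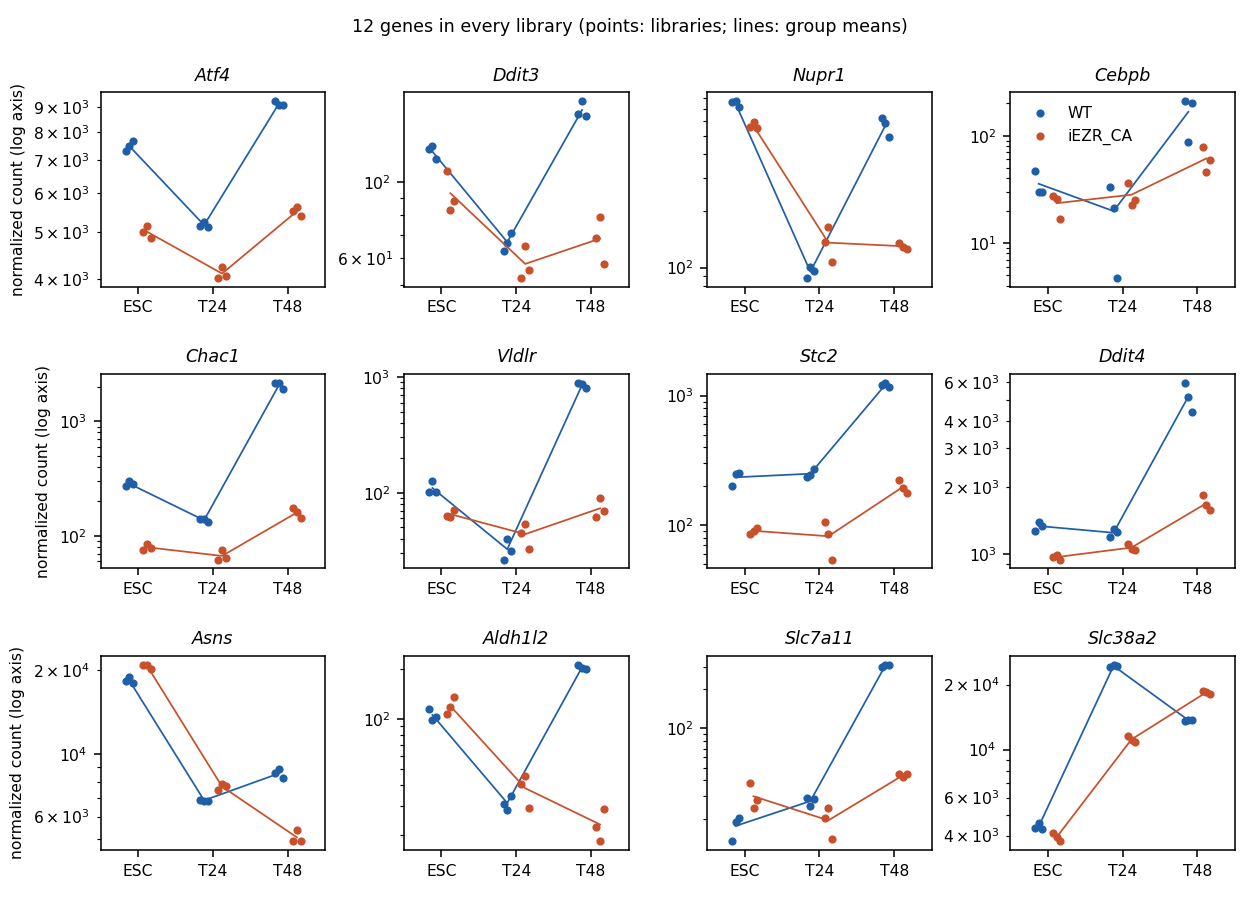
Normalized counts (log axis, which differs between panels) of 12 genes in each of the 18 libraries, by stage, for WT (blue) and iEZR_CA (orange), with points for libraries and lines through group means of 3. Chac1, Vldlr, Stc2, Aldh1l2 and Slc7a11 are highest in WT cells at T48, where no iEZR_CA library comes near, whereas Slc38a2 peaks at T24 in WT cells and at T48 in iEZR_CA cells.

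The enzymes of amino acid synthesis were divided between the lines before T48. In ESCs 4 of 8 were lower (50%, beside 28.1% of all genes) and 3 higher (37.5%, beside 26.4%). At T24 2 were lower (25%, beside 30.1%) and 3 higher (37.5%, beside 30.8%), near the shares over all genes. All 8 stood below WT at T48, with a median of -1.41. Asns (ENSMUSG00000029752, chr6:7675169-7693254), asparagine synthetase and the classic amino acid response gene, had the highest level per kilobase of exon in the module (4097 normalized counts, mean of the groups). Asns gave 18266, 18944 and 17997 in WT ESCs, 6896, 6837 and 6827 in WT cells at T24 and 8577, 8847 and 8239.6 in WT cells at T48. In iEZR_CA cells Asns gave 20928, 20879 and 20254 in ESCs, 7482, 7814 and 7734 at T24 and 4912, 5358 and 4897 at T48. ESC libraries of both lines were the highest, iEZR_CA ESCs above WT ESCs, and iEZR_CA cells at T48 were the lowest. Asns was higher in iEZR_CA cells in ESCs, at 0.16 (SE 0.03, adjusted p = 7.6e-07), and at T24, at 0.17 (SE 0.03, adjusted p = 9.7e-07), with -0.75 (SE 0.03) at T48.

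Phgdh, Psat1 and Psph make serine from a glycolytic intermediate, in that order. Psph stood at 1153, 1207 and 1252 in WT ESCs, at 728, 747 and 649 in WT cells at T24 and at 1784, 1793 and 1598 in WT cells at T48. In iEZR_CA cells Psph stood at 812, 785 and 836 in ESCs, at 565, 554 and 508 at T24 and at 483, 527 and 472 at T48. Psph did not overlap between the lines at any stage, was highest in WT cells at T48 and lowest in iEZR_CA cells at T24 and T48. It was lower in ESCs, at -0.58 (SE 0.05, adjusted p = 6.9e-16), and at T24, at -0.40 (SE 0.06, adjusted p = 1.3e-08), with -1.78 (SE 0.05) at T48, and it shared 10.4% of its exon bases with Cct6a. Psat1 was lower in ESCs (-0.26) and at T24 (-0.14), with -1.39 at T48. Phgdh was at -0.15 in ESCs, at 0.10 at T24 and at -1.42 at T48. The ESC value passed the test (adjusted p = 0.0088), and was lost without replicate 3 of WT ESC (-0.11) or replicate 1 (-0.13) or 3 (-0.13) of iEZR_CA ESC. In iEZR_CA cells mean Phgdh stood at 1227, 1203 and 1207 normalized counts at the 3 stages, and in WT cells at 1364, 1134 and 3256.

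Gpt2, a mitochondrial transaminase that links alanine and glutamate, and Cth, which makes cysteine, were higher in iEZR_CA cells before T48. Gpt2 measured 2138, 2201 and 1974 in WT ESCs, 1377, 1345 and 1309.9 in WT cells at T24 and 4144, 3998 and 3561 in WT cells at T48. In iEZR_CA cells Gpt2 measured 3012, 2994 and 2883 in ESCs, 2122, 2225 and 1983 at T24 and 1414, 1426 and 1371 at T48. Gpt2 libraries never overlapped between the lines, with iEZR_CA above WT in ESCs and at T24 and below it at T48. The fold changes were 0.49 (SE 0.05, adjusted p = 1.3e-08), 0.65 (SE 0.05, adjusted p = 2.9e-10) and, at T48, -1.46 (SE 0.05). Cth gave 3588, 4014 and 3938 in WT ESCs, 4424, 4751 and 4644 in WT cells at T24 and 2187, 2099 and 2072 in WT cells at T48. In iEZR_CA cells Cth gave 5434, 5455 and 5468 in ESCs, 5389, 5368 and 5551 at T24 and 1562, 1827 and 1741 at T48. Cth was above WT in iEZR_CA ESCs and at T24, and T48 was the lowest stage in both lines. It differed by 0.49 (SE 0.04, adjusted p = 1.4e-10) in ESCs and 0.24 (SE 0.04, adjusted p = 1.5e-05) at T24, with -0.31 (SE 0.05) at T48. The proline enzymes Aldh18a1 and Pycr1 stood at -1.46 and -0.89 at T48. Aldh18a1 was lower in ESCs (-0.44, adjusted p = 2.9e-15) and at 0.00 at T24, and Pycr1 passed neither test (-0.08 and -0.03).

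Gpt2 lies on chromosome 8, as do Eif4ebp1, Herpud1, Slc7a5 and Aars. The 683 tested genes of chromosome 8 with a mean normalized count of at least 50 differed between the lines as a group. Their median log2 fold change was 0.19 in ESCs, 0.24 at T24 and 0.20 at T48. Without these 5 genes of the module, an alternative chosen after the data were seen, 4 of 41 genes were higher in ESCs and 5 of 41 at T24. These stood beside 26.4% and 30.8% of all genes. Of the 41, 27 were lower in ESCs and 21 at T24, beside 28.1% and 30.1% of all genes. The part of this chromosome-wide difference in the 5 genes was not tested.

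The mitochondrial one-carbon enzymes take serine apart for folate-bound carbon units. In iEZR_CA ESCs 2 of 4 were lower (50%, beside 28.1% of all genes), and at T24 3 of 4 (75%, beside 30.1%). At both stages 0 were higher, beside 26.4% and 30.8% of all genes. All 4 stood below WT at T48. Shmt2, which splits serine into glycine and a one-carbon unit, came first. Shmt2 stood at 6643, 6759 and 6749.5 in WT ESCs, at 5508, 5361 and 5257 in WT cells at T24 and at 6587, 6455 and 6113 in WT cells at T48. In iEZR_CA cells Shmt2 stood at 4495, 4435 and 4546 in ESCs, at 3679.8, 3871 and 3681 at T24 and at 2999, 2915 and 2848 at T48. The lines did not overlap, and the iEZR_CA group at T48 was the lowest. Shmt2 was lower in ESCs, at -0.59 (SE 0.03, adjusted p = 9.9e-28), and at T24, at -0.52 (SE 0.03, adjusted p = 9e-25), with -1.12 (SE 0.03) at T48. Mthfd2 is the next dehydrogenase. Mthfd2 measured 2774, 2931 and 3007 in WT ESCs, 2109, 2032 and 2002 in WT cells at T24 and 5529, 5609.8 and 5049 in WT cells at T48. In iEZR_CA cells Mthfd2 measured 2535, 2404 and 2236 in ESCs, 1719, 1797 and 1683 at T24 and 2370.4, 2359.7 and 2107 at T48. WT cells at T48 were well above all other groups, and the lines were apart at each stage. Mthfd2 differed by -0.29 (SE 0.05, adjusted p = 4.2e-05) in ESCs and by -0.24 (SE 0.05, adjusted p = 0.00045) at T24, with -1.23 (SE 0.05) at T48.

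Mthfd1l releases formate from mitochondria. Mthfd1l gave 3498, 3619 and 3528 in WT ESCs, 3855, 3919.5 and 3777 in WT cells at T24 and 7030.3, 7344 and 6829 in WT cells at T48. In iEZR_CA cells Mthfd1l gave 3481, 3437 and 3519.6 in ESCs, 3022, 3034 and 2879 at T24 and 4114, 4212 and 4050.5 at T48. ESC libraries of the lines overlapped, and those of T24 and T48 did not. Mthfd1l was at -0.04 (SE 0.03, adjusted p = 0.31) in ESCs and lower at T24, at -0.37 (SE 0.03, adjusted p = 2.3e-17), with -0.77 (SE 0.03) at T48. Aldh1l2 (ENSMUSG00000020256, chr10:83487450-83534140), which oxidizes one-carbon units to carbon dioxide, was low in all groups. Aldh1l2 stood at 115, 98.7 and 103 in WT ESCs, at 30.9, 28.3 and 34.7 in WT cells at T24 and at 211, 201 and 199.7 in WT cells at T48. In iEZR_CA cells Aldh1l2 stood at 106, 117 and 134 in ESCs, at 40.5, 45.6 and 29.1 at T24 and at 22.6, 18.5 and 28.8 at T48. The lines overlapped in ESCs and at T24, and at T48 the lowest WT library was above every iEZR_CA library by far. Aldh1l2 passed no test in ESCs, at 0.17 (SE 0.13, adjusted p = 0.26), or at T24, at 0.33 (SE 0.20, adjusted p = 0.17). Its fold change at T48 was -3.17 (SE 0.15), or 8.98-fold lower, and 14.1% of its exon bases overlapped D10Wsu102e on the other strand.

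The transporters did not move as one. In ESCs 3 of 7 were lower (42.9%, beside 28.1% of all genes) and 3 higher (42.9%, beside 26.4%). At T24 4 were lower (57.1%, beside 30.1%) and 2 higher (28.6%, beside 30.8%). At T48 5 stood below WT and 2 above. Slc7a11 (ENSMUSG00000027737, chr3:49892526-50443614), the cystine importer, had the lowest level per kilobase of exon of the 46 genes (5.31 normalized counts). Slc7a11 measured 13.5, 19.1 and 20.4 in WT ESCs, 28.98, 25.2 and 28.4 in WT cells at T24 and 296, 309.7 and 311 in WT cells at T48. In iEZR_CA cells Slc7a11 measured 37.6, 24.3 and 28.0 in ESCs, 20.2, 24.3 and 14.1 at T24 and 44.3, 42.3 and 44.4 at T48. WT cells at T48 stood far above every other group, and all remaining libraries were between 13.5 and 44.4. Slc7a11 was higher in iEZR_CA ESCs, at 0.70 (SE 0.24, adjusted p = 0.012), a call lost without replicate 1 of WT ESC (0.57) or of iEZR_CA ESC (0.50). It was at -0.48 (SE 0.24, adjusted p = 0.08) at T24 and -2.80 (SE 0.13) at T48, or 6.96-fold lower. Slc1a4, which carries alanine, serine and cysteine, was below WT throughout. Slc1a4 gave 596, 612 and 627 in WT ESCs, 448, 529.9 and 456 in WT cells at T24 and 1641, 1652 and 1584 in WT cells at T48. In iEZR_CA cells Slc1a4 gave 255, 277 and 237 in ESCs, 306, 327 and 268 at T24 and 482, 516 and 498 at T48. No iEZR_CA library reached the WT range of its stage. The fold changes were -1.25 (SE 0.07, adjusted p = 7.7e-25) in ESCs, -0.66 (SE 0.07, adjusted p = 8.6e-13) at T24 and -1.70 (SE 0.05) at T48.

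Slc38a2, the sodium-coupled carrier of neutral amino acids, had the largest rise to T24 in WT cells. Slc38a2 stood at 4359, 4555 and 4306 in WT ESCs, at 24154, 24739.6 and 24354 in WT cells at T24 and at 13600.0, 13663 and 13783 in WT cells at T48. In iEZR_CA cells Slc38a2 stood at 4112, 3929 and 3767 in ESCs, at 11537, 11083 and 10846 at T24 and at 18677, 18528 and 18087 at T48. WT cells peaked at T24 and iEZR_CA cells at T48, so that the order of the lines turned between these stages, with no overlap at any. Slc38a2 was lower in ESCs, at -0.17 (SE 0.03, adjusted p = 4.6e-07), and at T24, at -1.13 (SE 0.03, adjusted p = 3e-46), and at T48 it stood at 0.44 (SE 0.03). Slc7a3, a carrier of cationic amino acids, also stood above WT at T48. Slc7a3 measured 3557, 3843 and 3823 in WT ESCs, 11145, 11714 and 11945 in WT cells at T24 and 5075, 4788 and 4887 in WT cells at T48. In iEZR_CA cells Slc7a3 measured 2115, 2222 and 2254 in ESCs, 8100.2, 8038 and 8126 at T24 and 6158, 6461 and 6401 at T48. Both lines were highest at T24, and iEZR_CA cells at T48 were above WT cells without overlap. Slc7a3 was lower in ESCs, at -0.78 (SE 0.03, adjusted p = 3.3e-30), and at T24, at -0.52 (SE 0.03, adjusted p = 2.3e-24), with 0.37 (SE 0.03) at T48. Slc7a1, another cationic carrier, was higher in ESCs (0.34) and at T24 (0.29), with -0.71 at T48. The 2 chains of the leucine carrier differed: Slc7a5, the light chain, was higher in ESCs (0.09) and at T24 (0.26), with -0.64 at T48, and Slc3a2, the heavy chain, was at -0.03 in ESCs, was lower at T24 (-0.22) and stood at -0.42 at T48.

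Cytosolic tRNA synthetases join each amino acid to its tRNA, and their differences were small before T48. In ESCs 7 of the 12 genes of this group were lower (58.3%, beside 28.1% of all genes) and 1 was higher (8.3%, beside 26.4%). At T24 7 were lower (58.3%, beside 30.1%) and 1 higher (8.3%, beside 30.8%), and none passed 2-fold at either stage. At T48 all 12 stood below WT, from -0.25 for Wars to -1.32 for Sars, with a median of -0.57. Sars gave 5556, 5733 and 5839 in WT ESCs, 3853, 3921 and 3605 in WT cells at T24 and 8656, 8814 and 8024 in WT cells at T48. In iEZR_CA cells Sars gave 4811, 4741 and 4575 in ESCs, 3240.1, 3343 and 3197 at T24 and 3464, 3295 and 3426 at T48. For Sars, the seryl-tRNA synthetase, the lines were apart at each stage and WT cells at T48 were the highest. It differed by -0.28 (SE 0.03, adjusted p = 1.2e-11) in ESCs, by -0.22 (SE 0.03, adjusted p = 4.5e-08) at T24 and by -1.32 (SE 0.03) at T48. Nars stood at 11508, 12023 and 11599 in WT ESCs, at 7269, 7393 and 7188 in WT cells at T24 and at 13445, 13613 and 12697 in WT cells at T48. In iEZR_CA cells Nars stood at 10483, 10507 and 10137 in ESCs, at 7369, 7459 and 7255 at T24 and at 6770.0, 6904 and 6694 at T48. For Nars, which charges the asparagine tRNA, the lines overlapped at T24 and the iEZR_CA group at T48 was the lowest. Its fold changes were -0.18 (SE 0.03, adjusted p = 1.4e-08), 0.02 (SE 0.03, adjusted p = 0.63) and -0.96 (SE 0.03).

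Lars measured 8388, 8746 and 8669 in WT ESCs, 8011, 8163 and 8224 in WT cells at T24 and 13923, 14256 and 13619.7 in WT cells at T48. In iEZR_CA cells Lars measured 7135, 7165 and 7029 in ESCs, 6608, 6745 and 6650.0 at T24 and 7473, 7475 and 7272 at T48. For Lars, the leucyl-tRNA synthetase, the WT group at T48 stood far above the rest, and the iEZR_CA group was below WT at all stages. It differed by -0.28 (SE 0.03, adjusted p = 2.9e-15) in ESCs, -0.28 (SE 0.03, adjusted p = 1.8e-15) at T24 and -0.90 (SE 0.03) at T48. Cars gave 5970.2, 5769.9 and 5958 in WT ESCs, 4111, 4132 and 4049.5 in WT cells at T24 and 5233, 5174 and 4853 in WT cells at T48. In iEZR_CA cells Cars gave 4629, 4479 and 4585 in ESCs, 3772, 3841 and 3594 at T24 and 2885, 3037 and 3079 at T48. For Cars, the cysteinyl-tRNA synthetase, ESCs were the highest stage in both lines and no stage overlapped. Its fold changes were -0.38 (SE 0.03, adjusted p = 7.6e-18), -0.13 (SE 0.03, adjusted p = 0.00014) and -0.76 (SE 0.03). Eprs, Iars and Yars were lower in ESCs (-0.20, -0.29 and -0.13) and at T24 (-0.14, -0.27 and -0.09), the T24 call of Yars being lost without replicate 3 of iEZR_CA T24 (-0.06). Aars was the one that was higher, at 0.09 and 0.17. Gars, Wars and Tars lay between -0.04 and 0.04 in ESCs and between -0.04 and 0.01 at T24 and passed neither test. Xpot, the tRNA exporter, was at 0.01 in ESCs and lower at T24 (-0.26). At T48 Aars, Eprs, Iars, Yars, Gars, Tars and Xpot stood at -0.35, -0.46, -0.61, -0.53, -0.71, -0.40 and -0.40.

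Within each line, more genes of the module fell than rose over the first 24 h. In WT cells 34 of the 46 genes fell from ESC to T24 (73.9%, beside 33.6% of all genes) and 6 rose (13.0%, beside 31.8%), with a median of -0.38. In iEZR_CA cells 32 fell (69.6%, beside 28.9%) and 5 rose (10.9%, beside 27.1%), with a median of -0.29, and scaled to the spike-in RNA 21 fell and 5 rose in WT cells, beside 17.97% and 28.8% of all genes, and 16 fell and 5 rose in iEZR_CA cells, beside 11.1% and 24.6%. Each comparison shares its ESC or T24 libraries with a comparison of the lines. All 4 one-carbon enzymes fell in iEZR_CA cells, as did 11 of the 12 genes of the synthetase group in each line. Nupr1 fell most, with log2 fold changes of -3.00 in WT and -2.06 in iEZR_CA cells (adjusted p = 6.3e-28 and 4.6e-22). In WT and iEZR_CA cells, in that order, Vldlr fell at -1.82 and -0.54, Aldh1l2 at -1.77 and -1.61, Asns at -1.44 and -1.43, and Trib3 at -1.29 and -0.97. The fall of Vldlr in iEZR_CA cells was lost without replicate 3 of iEZR_CA T24 (-0.35). The transporters Slc38a2 and Slc7a3 rose in both lines, by 2.46 and 1.62 in WT cells and 1.50 and 1.88 in iEZR_CA cells, and Slc3a2 rose by 0.41 and 0.22.

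The change to T24 itself differed between the lines for 22 of the 46 genes by the interaction term. For 16 (34.8%, beside 21.5% of all genes) the term was above 0, and for 6 (13.0%, beside 16.9%) it was below. Scaled to the spike-in RNA, it was above 0 for 4 of the 46 genes and below for 2, beside 8.97% and 4.12% of all genes. Both counts under that scaling were near the shares over all genes. The largest positive terms were those of Vldlr at 1.28 (SE 0.26, adjusted p = 3.4e-05), Nupr1 at 0.95 (SE 0.15, adjusted p = 2.1e-06) and Chac1 at 0.83 (SE 0.17, adjusted p = 4.4e-05). For each, the fall from ESC to T24 was larger in WT cells than in iEZR_CA cells. The largest negative ones were those of Slc7a11 at -1.18 (SE 0.34, adjusted p = 0.0041) and Slc38a2 at -0.96 (SE 0.04, adjusted p = 6.4e-32). Slc7a11 rose in WT cells (0.60) and fell in iEZR_CA cells (-0.58), but each of these calls was lost on leaving out 1 library. In WT cells these were replicate 1 of ESC (0.47) and replicate 1 of T24 (0.53), and in iEZR_CA cells replicate 1 of ESC (-0.38) and replicates 1 (-0.59) and 3 (-0.37) of T24. Slc1a4 fell in WT cells (-0.37) and rose in iEZR_CA cells (0.22). The rise was lost without replicate 1 (0.20) or 3 (0.17) of iEZR_CA ESC or replicate 2 of iEZR_CA T24 (0.13), and the interaction term was 0.59 (SE 0.10, adjusted p = 1.7e-06).

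Over the second day the lines parted, as a description. From T24 to T48 the log2 fold change was above 0 for 42 of the 46 genes in WT cells, with a median of 0.76, and for 24 in iEZR_CA cells, with a median of 0.06. Against ESCs, 34 genes stood above 0 at T48 in WT cells (median 0.43) and 17 in iEZR_CA cells (median -0.17). Scaled to the spike-in RNA, which moved the median of all genes to 0.27 (WT) and 0.26 (iEZR_CA) for this comparison, and to 0.13 and 0.14 for T24 over ESC, the module medians were 0.69 and 0.09. Relative to all genes, they were 0.42 and -0.17 under that scaling and 0.43 and -0.18 under the main one. The stress effectors spread most in WT cells from T24 to T48, with Vldlr at 4.75, Chac1 at 3.90, Stc2 at 2.29 and Ddit4 at 2.06, where iEZR_CA cells had 0.74, 1.25, 1.32 and 0.68. All 12 genes of the synthetase group were above 0 in WT cells in this interval, and 7 in iEZR_CA cells. Among the amino acid enzymes, 7 of 8 were above 0 in WT cells and 2 of 8 in iEZR_CA cells.

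**Figure D3:**
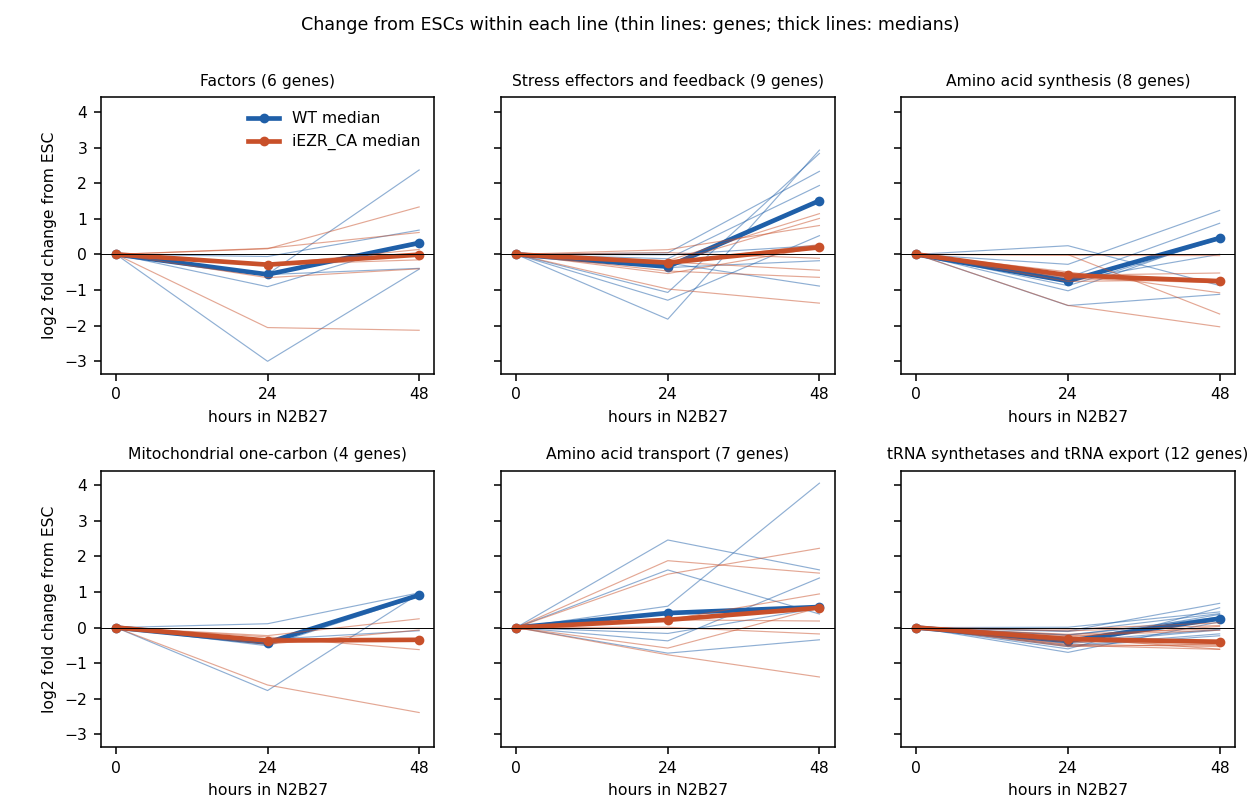
Log2 fold change from ESCs against hours in N2B27 for the 46 genes in 6 panels by function, for WT (blue) and iEZR_CA (orange), with thin lines for genes and thick lines for medians. The medians lie close at 24 h and part at 48 h for the stress effectors, amino acid synthesis, one-carbon and synthetase panels, while the factors are about as far apart at 24 h (-0.56 and -0.29) as at 48 h (0.32 and -0.01) and transport is close at 48 h (0.58 and 0.56). At 48 h the medians of the stress effectors are 1.51 (WT) and 0.20 (iEZR_CA) and those of amino acid synthesis 0.46 and -0.75.

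Summed over the 46 genes, the module took 10233 ± 121 CPM (counts scaled to the total on genes in the library) in WT ESCs, 8982 ± 67.8 at T24 and 12737 ± 319 at T48 (mean ± SD, n = 3), and 9501 ± 107, 8224 ± 121 and 8176 ± 114 in iEZR_CA cells. In iEZR_CA cells the sum at T48 differed from that at T24 by less than the spread between libraries. The synthetase group made up the largest part, with 6041 ± 134 CPM in WT cells at T48 and 3944 ± 42.3 in iEZR_CA cells. The sums of the stress effectors at T48 were 1210 ± 67.5 and 579 ± 10.9, and those of amino acid synthesis 1875 ± 77.4 and 845 ± 23.1. Transporters were the exception, at 2088 ± 24.9 and 1969 ± 30.2, with a wider gap at T24, where WT cells had 2476 ± 29.2 and iEZR_CA cells 1825 ± 24.0. Slc38a2 weighed most in the T24 sum, with means of 24416 normalized counts in WT and 11156 in iEZR_CA cells. At T48 Slc38a2 and Slc7a3 stood above WT, and the other 5 transporters stood below.

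**Figure D4:**
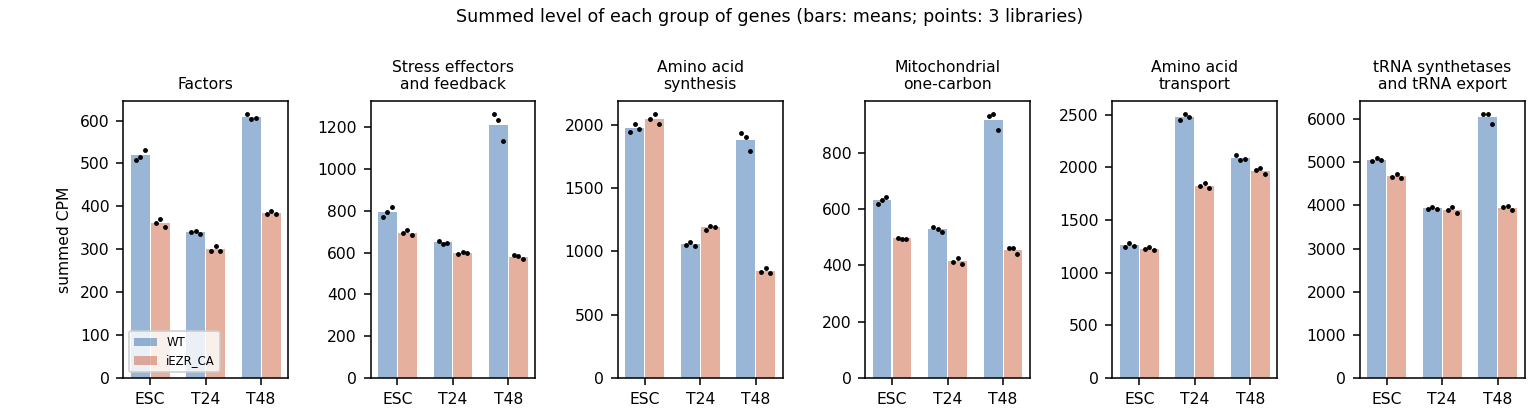
Summed level of each group of genes in CPM (linear axis from 0), with bars for means of 3 libraries and points for the libraries, in WT (blue) and iEZR_CA (orange) at each stage. In 5 of the 6 panels the largest gap is at T48, and for the transporters it is at T24, with 2476 against 1825.

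Per kilobase of exon, averaged over the 6 groups, levels in the module spanned from 4097 normalized counts for Asns to 5.31 for Slc7a11. Gars (3287), Eif4ebp1 (2825) and Atf4 (2571) came after Asns, and Vldlr (19.5) and Aldh1l2 (11.6) were just above Slc7a11. Chac1 (285) and Trib3 (397) were in between, and Cebpb (37.2) and Ddit3 (55.6) were the lowest of the factors.

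Lists of related genes outside the module went both ways at T48, apart from the other cytosolic synthetases. Over all genes tested, 31.0% were higher and 30.1% lower in iEZR_CA cells at T48. These shares were 30.8% and 30.1% at T24, and 26.4% and 28.1% in ESCs. The counts of the lists below are to be read beside them, and were not tested against them. Among 17 genes for eIF2 kinases, eIF2, eIF2B and the phosphatase, 7 were higher and 7 lower in iEZR_CA cells at T48, after 5 and 5 in ESCs and 5 and 4 at T24. Eif2s2, the beta subunit of eIF2, was higher at T24, at 0.90 (SE 0.03, adjusted p = 5.9e-39), as was Oma1, the mitochondrial protease that relays stress to eIF2 kinase, at 0.74 (SE 0.07, adjusted p = 1.4e-14). Impact, which inhibits the amino acid sensing kinase GCN2, was lower at -0.42 (SE 0.03, adjusted p = 1.1e-21), and the eIF2B subunit Eif2b1 at -0.38 (SE 0.04, adjusted p = 1.1e-13). None of the 17 passed 2-fold. Of 17 chaperones and genes of the ATF6 and XBP1 arms of the unfolded protein response, 6 were higher and 6 lower at T48, 7 and 6 at T24 and 6 and 3 in ESCs. These 17 ran from -0.45 to 0.58 at T48, with a median of 0.07. Hspa5, the chaperone BiP, was at -0.29 (SE 0.02, adjusted p = 1.4e-17) at T48, and Hyou1 at -0.10. At T24 the highest values were those of Atf6 (0.26) and Creld2 (0.25).

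Of 9 cytosolic synthetases outside the module, 0 were higher and 6 lower at T48, 0 and 5 at T24, and 3 and 4 in ESCs, with Vars at -0.39 (SE 0.03, adjusted p = 2.1e-21) and Farsb at -0.43 (SE 0.03, adjusted p = 6e-21) at T48. These 9 ran from -0.70 to 0.05 at T48, with a median of -0.12, beside -0.57 for the 12 of the module. The 12, which include Xpot, were chosen with their T48 difference known, so the gap between these medians cannot be told apart from that choice. Of 17 mitochondrial synthetases, 4 were higher and 7 lower at T48, 5 and 7 at T24 and 1 and 7 in ESCs. Iars2 was lower at T48 (-0.44), whereas Lars2 and Wars2 were higher at T24, Lars2 with a wide error at 1.77 (SE 0.43, adjusted p = 0.0029) and Wars2 at 0.60 (SE 0.10, adjusted p = 1.2e-06). Of 12 genes of the response to NRF2, the oxidative stress factor that also acts on Slc7a11, with its own gene Nfe2l2 and that of its repressor Keap1 among them, 8 were higher and 3 lower at T48, 6 and 6 at T24 and 5 and 2 in ESCs. Me1, the malic enzyme, was higher at each stage (0.92, 0.997 and 0.85), and Keap1 at T24 and T48 (0.63 and 0.69). Srxn1 and Hmox1 were lower at T24 (-1.46 and -0.62). Of 20 other amino acid and folate genes, 7 were higher and 10 lower at T48, 5 and 10 at T24 and 11 and 6 in ESCs. At T24 the glutamine carrier Slc1a5 (0.48) and Slc7a6 (0.41) were higher, and Slc43a1 (-0.72) and glutamine synthetase, Glul (-0.41), were lower. The module and these lists were not tested against each other.

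**Figure D5:**
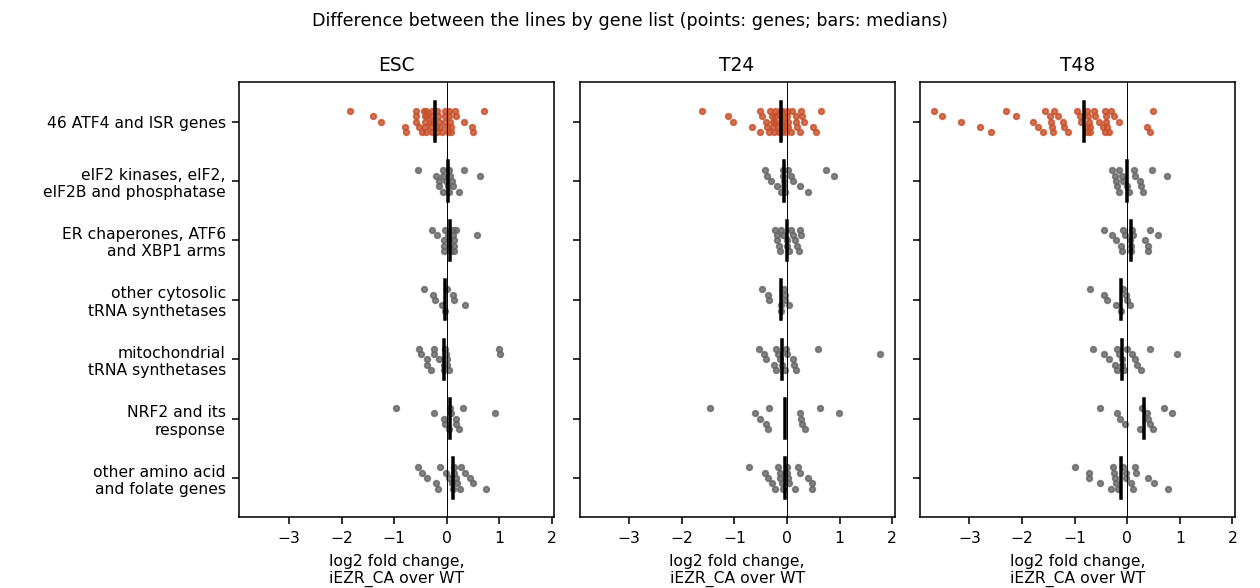
Log2 fold change of iEZR_CA over WT for the 46 genes (orange points) and for 6 lists of related genes (grey points), in ESCs, at T24 and at T48, with black bars for medians. At T48 the median is -0.83 for the 46 genes, which were chosen there, and between -0.13 and 0.33 for the other lists.

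Markers of the stage of exit and of other cell types differed between the lines as well. The summed level of 6 early post-implantation markers (Fgf5, Otx2, Pou3f1, Lef1, Dnmt3b and Sox4) at T48 ranged from 77105 to 83102 normalized counts in WT and from 38968 to 41282 in iEZR_CA libraries, and at T24 from 42973 to 45509 and from 15447 to 16447. The 6 pluripotent markers, led by Pou5f1 or Nanog in most groups, were all detected in every group and their sum at T48 ran from 23638 to 24321 in WT and from 29491 to 30701 in iEZR_CA libraries. At T24 this sum ran from 55019 to 55836 in WT and from 67800 to 68710 in iEZR_CA libraries. The order was the other way in ESCs, with 99283 to 101012 in WT and 85856 to 87409 in iEZR_CA libraries. In ESCs the early post-implantation sum was 3483 to 3605 in WT and 3894 to 4155 in iEZR_CA libraries. The 7 primitive endoderm markers summed to 236 to 262 in WT ESCs and 747 to 806 in iEZR_CA ESCs, led there by Dab2, and to 297 to 334 and 230.0 to 266 at T48. The 5 fibroblast markers summed to 397 to 445 in WT cells at T48, led by Col1a2, and to 80.3 to 90.0 in iEZR_CA cells, with 1 of the 5 at 0 in both lines. The 5 trophoblast markers were at 174 to 184 in WT and 442 to 495 in iEZR_CA libraries at T48, the 4 neural markers, led by Tubb3, at 2025 to 2048 and 907 to 934, and the 5 markers of 2-cell-like cells at 30.6 to 51.6 and 20.4 to 23.1. At T24 the neural sum was lower in WT, at 1277 to 1354, than in iEZR_CA libraries, at 1604 to 1621. So was the fibroblast sum at T24, at 59.3 to 80.4 and 98.5 to 119. The part of stage or of these cell types in the module's differences was not tested.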

How the data were processed

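Polyadenylated RNA of mouse ESCs was sequenced in 18 libraries, 3 in each of 6 groups set by cell line and exit time point in the labels. The authors trimmed reads with Trim Galore 0.6.5, aligned them to GRCm38/mm10 with GSNAP and counted them per gene with HTSeq, per the submitters' processing notes, and deposited 1 table of raw counts. The strand setting of the counting is not given in the sources used here, so reads of overlapping genes cannot be told apart by strand. Of 53801 genes, 53706 were found in the annotation. Reads on 92 spike-in sequences made up 0.575 to 0.884% of a library, and reads outside genes were left out of library sizes. There were 0 columns without a sample.

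Counts were tested with edgeR 4.0.16 (R 4.3.3), with trimmed mean of M-values scaling and the quasi-likelihood test, in 1 fit over all 18 libraries with a mean per group (12 residual degrees of freedom). Genes passed edgeR's filter on low counts (18469 tested), and p-values were adjusted by Benjamini-Hochberg over these, at a threshold of 0.05. The script was tested on simulated data. DESeq2 1.42.0, limma 3.58.1 (voom), other scalings, filters and thresholds, and fits without each library were alternatives. Of the 2 gene IDs of Ddit3 the longer was used. Reads of a gene per library ranged with depth, from 10940752 to 33276622 reads on genes, which sets the precision of low genes.

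The members and lists were chosen with earlier results of these data known. Values in every library were given for all factors and, in each other group, for the 4 genes with the widest range of group means among those with a mean normalized count of at least 50. From each related list, up to 2 genes highest and 2 lowest between the lines at T24 among those past the threshold were named. A gene that this rule names is not reported here. Promoter windows came from RefSeq (GRCm38.p6), and motif search used Python 3.11.15.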

Additional observations from a re-analysis of the deposited data

Results flagged for a closer look

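The change from ESC to T24 differed between the lines by the interaction term (iEZR_CA minus WT, log2, edgeR's quasi-likelihood test) for 22 genes. The term was above 0 for 16 (34.8%, beside 21.5% of all genes) and below for 6 (13.0%, beside 16.9%). Scaled to the spike-in RNA, these counts were 4 and 2, near the shares over all genes (8.97% and 4.12%). Among the factors the term was 0.26 for Atf4, 0.28 for Atf5, 0.23 for Cebpg and 0.95 for Nupr1. Among the effectors it was 0.32 for Trib3, 0.83 for Chac1 and 1.28 for Vldlr. Among the enzymes it was 0.12 for Psat1, 0.25 for Phgdh, 0.44 for Aldh18a1, -0.25 for Cth and -0.33 for Mthfd1l. Among the transporters it was -1.18 for Slc7a11, 0.17 for Slc7a5, 0.26 for Slc7a3, -0.19 for Slc3a2, -0.96 for Slc38a2 and 0.59 for Slc1a4. In the synthetase group it was -0.27 for Xpot, 0.20 for Nars, 0.08 for Aars and 0.24 for Cars. The call of Psat1 was lost on leaving out 1 of 2 libraries, with DESeq2 and with limma-voom. The call of Aars was lost on leaving out 1 of several libraries, with DESeq2, with its size factors in edgeR, with at least 10 counts required in every library and with no filter.

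At T48, for 13 genes, every WT library stood above all WT ESC libraries and every iEZR_CA library below all iEZR_CA ESC libraries. The difference between the lines in the change from ESC to T48 was not tested because the genes had been chosen at T48. The share of all genes with this pattern was not counted. The difference (iEZR_CA minus WT, log2) was -0.78 for Ddit3, -1.89 for Trib3 and -0.36 for Sesn2. It was -1.13 for Psat1, -1.20 for Psph, -1.02 for Aldh18a1, -1.95 for Gpt2 and -3.34 for Aldh1l2. It was -0.73 for Slc7a5, -0.72 for Gars, -1.03 for Sars, -0.29 for Wars and -0.78 for Nars.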

How the results depend on the processing

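Scaled to the spike-in RNA, fewer genes passed the test. Between the lines, 4 were higher and 15 lower in ESCs and 7 lower at T24. From ESC to T24, 21 fell in WT and 16 in iEZR_CA cells, and the interaction term was above 0 for 4 and below 0 for 2. Median log2 fold changes of the module under this scaling were -0.175 in ESCs, -0.031 at T24 and -0.783 at T48 between the lines, -0.248 (WT) and -0.137 (iEZR_CA) from ESC to T24, 0.689 in WT cells from ESC to T48, and 0.090 in iEZR_CA cells from ESC to T48, where the sign turned. Lars (0.042 in WT and 0.055 in iEZR_CA cells) and Eprs (0.022 in WT cells) also turned in sign from ESC to T24.

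With a threshold of 2-fold added, 0 were higher and 3 lower in ESCs, and 0 and 3 at T24. The 3 lower genes (6.5%) were near the shares over all genes, 6.31% in ESCs and 7.00% at T24. From ESC to T24, 2 rose and 7 fell in WT cells, and 2 and 3 in iEZR_CA cells. The counts were 1 and 1 for the interaction term. Other shares of all genes past this threshold were not counted. With at least 10 counts required in every library, which left 45 of the genes, the medians were -0.188 in ESCs, -0.782 at T48 and 0.465 in WT cells from ESC to T48. Without the 5 genes on chromosome 8, chosen after the data were seen, 4 were higher in ESCs and 5 at T24, beside 26.4% and 30.8% of all genes. Leaving out 1 library at a time moved the median between the lines at T48 from -0.863 to -0.799 and that in WT cells from ESC to T24 from -0.428 to -0.357. DESeq2, limma-voom and the other settings left these counts within 1.5 times of the main ones. Over values of single genes, without the counts and medians above, 6703 under the alternatives were the same as the main ones. Here the same means on the same side of the threshold or, for the lines at T48, within a set distance in SE. Of the other gene values, 134 were weaker, 34 stronger, 20 moved and 3 reversed. No paired analysis was possible because the labels give no replicate numbers. Depth limited Slc7a11, Aldh1l2, Cebpb, Vldlr and Ddit3, whose counts were among the lowest.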

Other observations

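Some genes passed a test only under an alternative, and their values in those fits are given without explanation. Ddit4 was lower in iEZR_CA cells at T24 with DESeq2 (-0.22) and in a fit of the compared groups alone (-0.22). The interaction term at T24 passed for Psph without 1 of 9 libraries (0.19 to 0.23). For Gpt2 it passed without replicate 3 of WT ESC (0.21) or of iEZR_CA T24 (0.21), or replicate 1 or 3 of WT T48 (0.16 each). It also passed for Gpt2 with the compared groups alone (0.15) and with no filter on low counts (0.18). For Ddit4 it passed with the compared groups alone (0.25) and without replicate 1 or 3 of WT T48 (0.26 each). For Eif4ebp1 it passed without replicate 3 of WT ESC (-0.12), replicate 2 of WT T24 (-0.13) or replicate 3 of iEZR_CA ESC (-0.11). Slc7a11 was lower at T24 without replicate 2 of iEZR_CA T24 (-0.73), and Aldh1l2 was higher without replicate 3 of iEZR_CA T24 (0.50). Cebpg was lower at T24 without replicate 2 of WT T24 (-0.14), and Phgdh higher without replicate 1 of iEZR_CA T24 (0.16). The fall of Lars in iEZR_CA cells and the higher levels of Slc7a5 and Aars in iEZR_CA ESCs were lost with no filter on low counts, at -0.08, 0.07 and 0.07.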
